A study of Mus musculus with 9 samples.

Results

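Of the 15593 gene symbols measured in mouse gastrocnemius, 7 steroid receptor and steroid-responsive genes are described here. They are the glucocorticoid receptor gene Nr3c1 and the muscle genes Fkbp5, Tiparp, Tsc22d3, Zbtb16, Klf15 and Ddit4, each known to respond to glucocorticoids, androgens or both. They were chosen by name, as a steroid receptor and textbook steroid targets, with earlier results of these data known. Every sequence record carrying a gene's symbol was summed. All 7 were listed above 0 in all 9 libraries and entered the tests, which covered 15372 genes. In muscle of mdx mice treated with the drug GTx-026, Fkbp5 was 5.55-fold and Tiparp 2.05-fold higher than in wildtype muscle. Both rises passed the threshold over all genes, but neither did when any single wildtype or treated library was left out. Against mdx muscle without the drug, 0 of the 7 genes passed. In mdx muscle without the drug Tiparp lay within the wildtype spread, whereas all libraries of Fkbp5 and Ddit4 lay above the wildtype libraries, short of the threshold. Klf15 was at its lowest and Zbtb16 above wildtype in the treated group, without passing the test, and Nr3c1 itself lay at a similar mean level in the 3 groups.

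The study profiled polyadenylated RNA of gastrocnemius, the large calf muscle, in 3 groups of 3 libraries. Vehicle was given to a wildtype group and to an mdx group, and another mdx group received 10 mg/kg GTx-026 subcutaneously. Mdx mice lack functional dystrophin through a mutation of its gene and serve as a Duchenne muscular dystrophy model. GTx-026 belongs to the drug class named in the study's title. Both mdx groups carry the mutation, and vehicle is the control in both vehicle groups. No wildtype group received the drug. The treated mdx group therefore differs from wildtype vehicle in both genotype and drug, which cannot be told apart in that comparison. The strain label is C57BL/6 for every library of the 3 groups, and neither age nor sex is stated in the labels. No library is tied to a named animal, so the p-values reflect only how much these libraries vary, which may in part be technical.

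Glucocorticoids and androgens enter cells and bind receptors of the nuclear receptor family, which then act on DNA as transcription factors. Before they bind hormone these receptors sit in a complex with heat-shock chaperones and immunophilins. In skeletal muscle glucocorticoids favour protein breakdown and the use of amino acids as fuel, while androgens favour growth. Many steroid targets are shared between the receptors, since these recognise similar DNA elements, and several of them feed back on the hormone signal.

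The starts of 3 of these genes are shown because Fkbp5 and Tiparp had the highest and Klf15 the lowest log2 fold change of the members in treated against mdx vehicle muscle. Each stretch runs from 250 bases before to 10 bases after a RefSeq transcription start (GRCm38.p6), with CACGTG (the E-box core) and GGGCGG (a GC box) in capitals.
Fkbp5 (chr17:28486140-28486399, strand minus): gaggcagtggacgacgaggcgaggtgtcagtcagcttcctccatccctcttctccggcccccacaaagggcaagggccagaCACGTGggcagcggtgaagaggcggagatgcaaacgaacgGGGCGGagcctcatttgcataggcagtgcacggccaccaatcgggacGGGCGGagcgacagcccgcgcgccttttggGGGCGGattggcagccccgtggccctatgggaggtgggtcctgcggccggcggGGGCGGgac
Tiparp (chr3:65528197-65528456, strand plus): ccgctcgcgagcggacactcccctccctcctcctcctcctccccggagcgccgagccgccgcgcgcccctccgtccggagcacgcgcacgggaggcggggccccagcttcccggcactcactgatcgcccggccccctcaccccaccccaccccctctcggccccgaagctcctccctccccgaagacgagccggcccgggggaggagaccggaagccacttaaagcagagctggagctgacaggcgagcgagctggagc
Klf15 (chr6:90462326-90462585, strand plus): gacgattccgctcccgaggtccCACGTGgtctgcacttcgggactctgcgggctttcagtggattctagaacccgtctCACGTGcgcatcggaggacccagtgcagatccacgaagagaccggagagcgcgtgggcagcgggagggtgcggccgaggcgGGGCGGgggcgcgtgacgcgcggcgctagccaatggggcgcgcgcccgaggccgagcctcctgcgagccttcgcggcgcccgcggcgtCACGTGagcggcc
Klf15 holds CACGTG 3 times, with first bases at −228, −172 and −3 from the start base counted as 0, and Fkbp5 holds it once at −169. CACGTG occurs in 7.15% of the 32851 windows of the same table, each 250 bases before to 50 after a start. Fkbp5 also has GGGCGG 4 times and Klf15 once, and 35.7% of all windows have at least 1. The palindromic steroid receptor element, searched as GNACA and TGTNC with 3 bases between them and found in 0.475% of windows, and the dioxin-response core TNGCGTG, found in 5.07%, were in none of the 7 windows of Fkbp5, Tiparp, Klf15, Ddit4 and Tsc22d3. The shorter AGAACA was present in a single Tsc22d3 window, on the opposite strand, and in 18.97% of all windows. Both strands were searched for each motif, no matches in the members' windows overlapped, and a match or its absence describes these letters only.

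Estimated listed reads ran from 25.1 M to 38.0 M a library. Levels are given as CPM, reads for every 1000000 reads of the library after rescaling, and differences as log2 fold changes from limma with their standard error (SE). Adjusted p-values are Benjamini-Hochberg values over all 15372 genes, with a threshold of 0.05. The 8 skeletal muscle fibre markers, which define the tissue, summed to between 116176 and 208478 CPM in all libraries. The mdx vehicle library 1 stood apart: its 8 slow-fibre markers summed to 284 CPM, against 6089 and 8373 CPM in the other libraries of its group, and its only tested lymphoid marker, Cd52, was at 110 CPM against 2.09 and 5.84 CPM. Of 11 macrophage markers 10 were tested, and they summed to 52.0 to 137 CPM in wildtype vehicle, 144 to 1016 CPM in mdx vehicle and 400 to 627 CPM in mdx GTx-026. The 6 fibro-adipogenic progenitor markers summed to 420 to 630 CPM in wildtype vehicle, 588 to 1408 CPM in mdx vehicle and 899 to 1507 CPM in mdx GTx-026, so for both lists all treated libraries lay above all wildtype libraries. Their part in the members' results was not tested. In whole muscle, fewer cells of a type and less RNA per cell cannot be told apart.

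**Figure D1:**
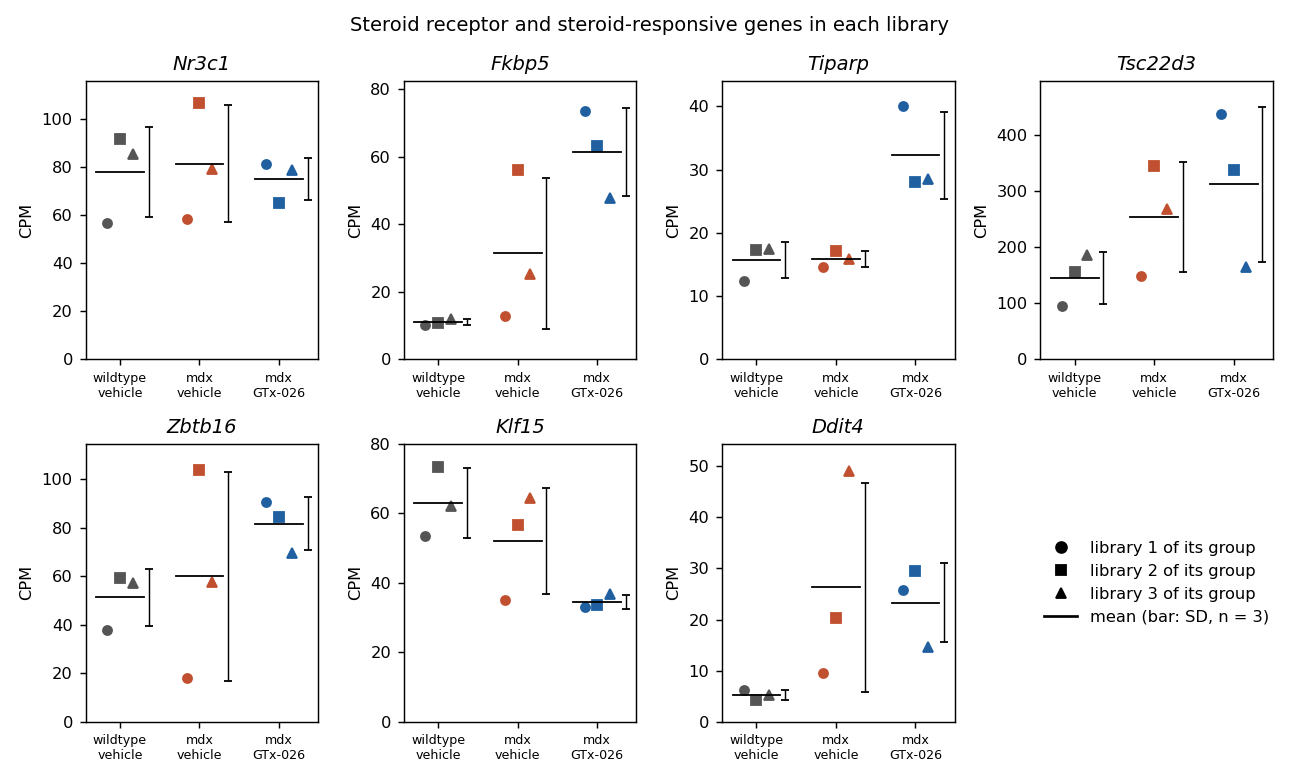
Level of each of the 7 genes in CPM (vertical axis, from 0) in the 9 libraries by group (horizontal axis); symbols mark library 1, 2 or 3 of a group, lines the mean and bars the SD (n = 3). Tiparp in the 3 treated libraries lies between 28.1 and 40.1 CPM, above all 6 others, and every gene is lowest within mdx vehicle in library 1.

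Nr3c1 (chromosome 18), the glucocorticoid receptor and the only receptor among the members, was at 56.7, 91.4 and 85.4 CPM in wildtype vehicle libraries 1 to 3. It was at 58.2, 107 and 79.1 CPM in mdx vehicle and at 81.1, 64.8 and 78.7 CPM in mdx GTx-026. The 3 groups overlapped throughout, and their means of 77.8 ± 18.6, 81.3 ± 24.3 and 74.8 ± 8.82 CPM (SD, n = 3) differed by less than the spread within a group. Its log2 fold change was 0.05 in mdx vehicle against wildtype vehicle (95% interval −0.50 to 0.60) and −0.08 in mdx GTx-026 against mdx vehicle (−0.63 to 0.47). Against wildtype vehicle the treated group differed by −0.03 (−0.58 to 0.52). Such intervals do not show that the receptor gene was at the same level in the groups, only that a change beyond these bounds was not measured.

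Fkbp5 (chromosome 17, 28399094 to 28517527, GRCm38) encodes FKBP51, the immunophilin co-chaperone that lowers the hormone affinity of the glucocorticoid receptor complex and is itself induced by the receptor. Its level was 10.1, 10.7 and 11.9 CPM in wildtype vehicle, a narrow range. In mdx vehicle it was 12.7, 56.2 and 25.3 CPM, all above the wildtype range but far apart from each other. In mdx GTx-026 it reached 73.5, 63.3 and 47.6 CPM, with the lowest treated library under the highest mdx vehicle library. Against wildtype vehicle Fkbp5 rose in mdx GTx-026 by a log2 fold change of 2.47 (SE 0.43, adjusted p = 0.0279). In mdx vehicle the difference from wildtype was 1.27 (SE 0.43, adjusted p = 0.282) and did not pass. GTx-026 against vehicle within mdx gave 1.20 (SE 0.43, adjusted p = 1.00), with 0.67 without mdx vehicle library 1 and 1.75 without library 2. The rise against wildtype lost its call when any single library of the wildtype or treated group was left out, with adjusted p-values of 0.0715 to 0.107 and a log2 fold change of 2.33 to 2.65.

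Tiparp (chromosome 3, 65528410 to 65555518, GRCm38) encodes a mono-ADP-ribosyltransferase that is a target and a repressor of the aryl hydrocarbon receptor and is also known as an androgen-responsive gene. It was at 12.4, 17.3 and 17.4 CPM in wildtype vehicle and at 14.6, 17.1 and 15.9 CPM in mdx vehicle. The treated libraries were at 40.1, 28.1 and 28.5 CPM, and the lowest of them was above all 6 libraries without the drug. Mean levels were 15.7 ± 2.87, 15.8 ± 1.26 and 32.3 ± 6.83 CPM (SD, n = 3). Tiparp rose in mdx GTx-026 against wildtype vehicle by 1.04 (SE 0.19, adjusted p = 0.0352). Against mdx vehicle the log2 fold change was 1.01 (SE 0.19, unadjusted p = 0.00046), the 15th smallest p of all genes, but the adjusted p of 0.444 did not pass. Between mdx vehicle and wildtype vehicle the difference was 0.03 (95% interval −0.41 to 0.46). Like that of Fkbp5, the call against wildtype was lost when any single library of the wildtype or treated group was left out (adjusted p = 0.0827 to 0.118), and also with an untrended prior (adjusted p = 0.0516). An exon of Tiparp overlaps the pseudogene 4931440P22Rik on the other strand, and as strand use is not given in the sources used here, reads of the pair cannot be told apart.

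Tsc22d3 (chromosome X, 140539528 to 140600659, GRCm38) encodes GILZ, the glucocorticoid-induced leucine zipper protein with anti-inflammatory action. It was at 94.1, 156 and 185 CPM in wildtype vehicle, at 148, 344 and 267 CPM in mdx vehicle and at 436, 336 and 163 CPM in mdx GTx-026. Neighbouring groups overlapped, because the lowest library of each mdx group lay inside the wildtype range. Log2 fold changes were 0.77 for mdx vehicle (SE 0.42, adjusted p = 0.469) and 1.05 for mdx GTx-026 (SE 0.42, adjusted p = 0.331), both against wildtype vehicle. GTx-026 against mdx vehicle gave 0.27 (95% interval −0.67 to 1.21), and −0.08 without mdx vehicle library 1.

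Zbtb16 (chromosome 9, 48654297 to 48836222, GRCm38) encodes PLZF, a zinc finger transcription factor known as a strongly steroid-induced gene. It was at 37.8, 59.0 and 57.0 CPM in wildtype vehicle and at 90.6, 84.5 and 69.6 CPM in mdx GTx-026. All treated libraries lay above all wildtype libraries, yet the log2 fold change of 0.69 (SE 0.51, adjusted p = 0.673) did not pass. The mdx vehicle libraries, at 18.0, 104 and 57.8 CPM, spanned a range beyond both other groups. That group's difference from wildtype was −0.08 (SE 0.51), with 0.62 without its library 1 and −0.64 without its library 2. GTx-026 against mdx vehicle gave 0.77 (SE 0.51, adjusted p = 1.00), with 0.06 without mdx vehicle library 1 and 1.33 without library 2.

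Klf15 (chromosome 6, 90462576 to 90475238, GRCm38) is a glucocorticoid-induced Krüppel-like factor that drives genes of amino acid breakdown in muscle. It was at 53.4, 73.4 and 62.1 CPM in wildtype vehicle, 34.9, 56.7 and 64.3 CPM in mdx vehicle and 33.1, 33.5 and 36.8 CPM in mdx GTx-026. The treated libraries sat close together, below every wildtype library, with the lowest mdx vehicle library among them. Against wildtype the treated group differed by −0.86 (SE 0.22, adjusted p = 0.11). This passed the threshold without mdx vehicle library 1 (−0.87, adjusted p = 0.0196), with library weights (adjusted p = 0.00946) and with only the compared groups in the model (adjusted p = 0.0273). Against mdx vehicle the log2 fold change was −0.55 (SE 0.22, adjusted p = 1.00), and −0.82 without mdx vehicle library 1 (adjusted p = 0.545). Between mdx vehicle and wildtype vehicle Klf15 differed by −0.31 (95% interval −0.81 to 0.18).

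Ddit4 (chromosome 10, 59949669 to 59951834, GRCm38) encodes REDD1, a stress- and glucocorticoid-induced brake on the growth kinase complex mTORC1. It was at 6.17, 4.17 and 5.20 CPM in wildtype vehicle. In mdx vehicle it was at 9.53, 20.4 and 49.1 CPM and in mdx GTx-026 at 25.7, 29.5 and 14.6 CPM, so every mdx library was above every wildtype library and the mdx groups overlapped. The log2 fold change against wildtype was 2.04 in mdx vehicle (SE 0.51, adjusted p = 0.168) and 2.12 in mdx GTx-026 (SE 0.51, adjusted p = 0.0858). Without mdx vehicle library 1 both differences passed, at 2.62 (adjusted p = 0.0392) and 2.10 (adjusted p = 0.0205). The mdx vehicle difference also passed with library weights (2.71, adjusted p = 0.0156) but was 1.44 without mdx vehicle library 3 (adjusted p = 0.322). The treated difference also passed with the deposited scaling (adjusted p = 0.044), with library weights (0.00966), with the compared groups only (0.0131) and without mdx vehicle library 3 (0.0254). Between the 2 mdx groups the difference was 0.07 (95% interval −1.07 to 1.21), with −0.51 without mdx vehicle library 1 and 0.68 without library 3.

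In mdx vehicle against wildtype vehicle, 0 of the 7 genes passed the threshold in limma, where 0.332% of all genes passed, 0.208% higher and 0.124% lower. At an unadjusted p under 0.05 there were 2, Ddit4 and Fkbp5, against 12.7% of all genes, and the same 2 were higher without overlap between the groups, as were 7.97% of all genes. In mdx GTx-026 against mdx vehicle 0 of 7 passed in limma, where 0.013% of all genes did. At an unadjusted p under 0.05 there were 3, Tiparp, Fkbp5 and Klf15, against 3.13% of all genes. Tiparp alone was higher without overlap, as were 3.67% of all genes, and 6.8% of all genes did not overlap in either direction. In mdx GTx-026 against wildtype vehicle 2 of 7 passed, both higher, where 1.09% of all genes rose and 1.5% passed in either direction. At an unadjusted p under 0.05 there were 5, Fkbp5, Tiparp, Tsc22d3, Klf15 and Ddit4, against 12.7% of all genes. Fkbp5, Tiparp, Zbtb16 and Ddit4 were higher without overlap, against 11.5% of all genes, and Klf15 lower without overlap, against 9.23%, where 20.8% of all genes did not overlap. The median log2 fold change of the 7 was 0.05, 0.27 and 1.04 in these comparisons, beside 0.01, 0.01 and 0.00 over all genes. The comparisons share libraries and are not independent of each other.

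**Figure D2:**
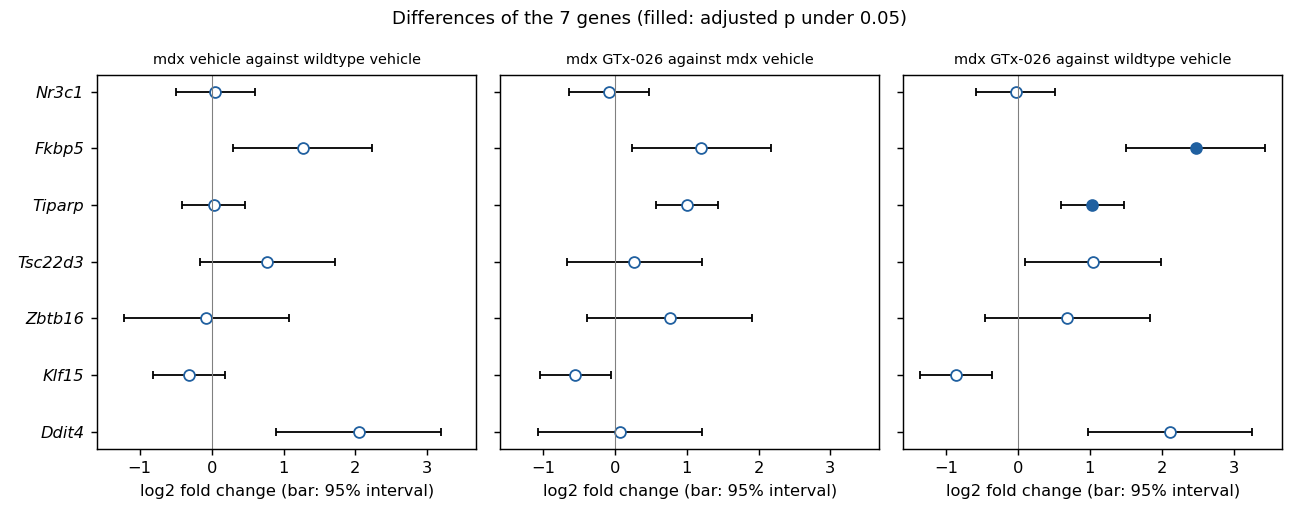
Log2 fold change of each gene (horizontal axis) with its 95% interval in the 3 comparisons; filled points have an adjusted p under 0.05. Only Fkbp5 (2.47) and Tiparp (1.04) in mdx GTx-026 against wildtype vehicle are filled.

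The authors' scaling as deposited, used without rescaling, moved the median of all genes by 0.18 in mdx vehicle against wildtype vehicle and by 0.11 in mdx GTx-026 against wildtype vehicle. With it 42 genes were called higher and 12 lower in mdx vehicle against wildtype, beside 32 and 19 here. In mdx GTx-026 against wildtype these counts were 194 and 41, beside 167 and 64. The directions of Fkbp5, Tiparp, Tsc22d3, Klf15 and Ddit4 against wildtype held under that scaling, whereas the small differences of Zbtb16 in mdx vehicle and of Nr3c1 in mdx GTx-026 changed sign to 0.11 and 0.08.

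A gene's signal is the sum of its sequence records, which number 10 for Nr3c1, 9 for Tsc22d3, 5 for Klf15 and 2 for Zbtb16. Fkbp5, Tiparp and Ddit4 have 1 record each. The 9 Tsc22d3 records lay close together, with log2 fold changes of 0.92 to 1.14 in mdx GTx-026 against wildtype vehicle. Klf15 varied more: in mdx vehicle against wildtype vehicle 2 of its records differed by −0.14 and −0.10 and the other 3 by −0.52 to −0.65. In treated against wildtype muscle each of the 5 Klf15 records was lower without overlap, by −0.73 to −1.10. The 2 Zbtb16 records, which held 33.6% and 66.4% of its signal, were both higher without overlap in that comparison (0.66 and 0.70). The 10 Nr3c1 records ranged from −0.14 to 0.14. Records of a gene can share reads, so they are not independent measurements. At most 0.456% of the 50-base words of any member's transcripts, those of Tsc22d3, occurred in another gene.

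**Figure D3:**
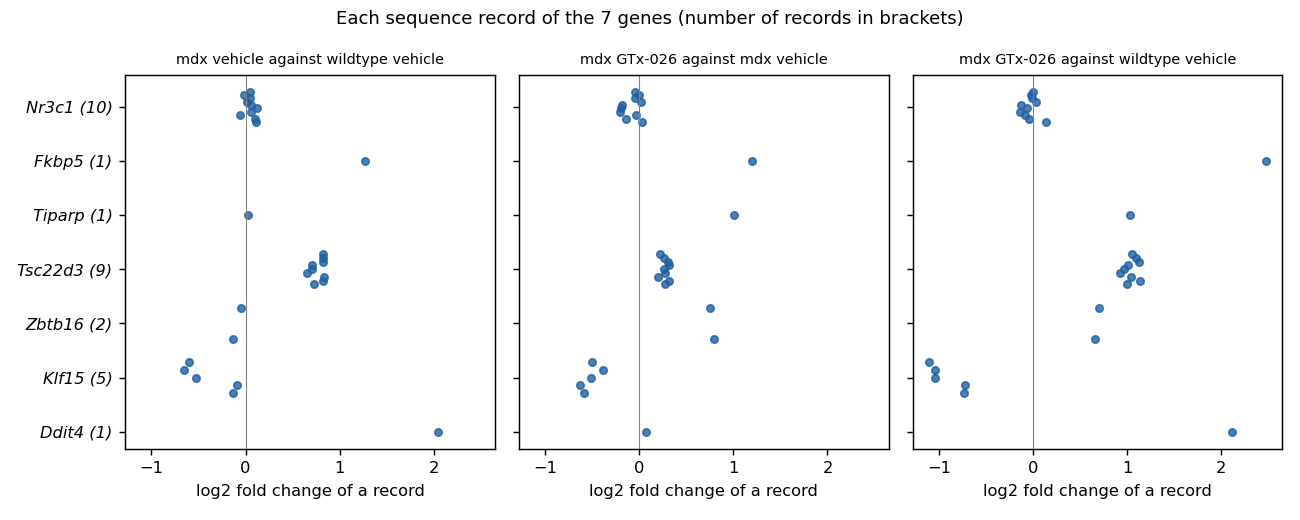
Log2 fold change (horizontal axis) of each sequence record of the 7 genes, with the number of records in brackets, in the 3 comparisons. The 5 Klf15 records split into 2 near zero and 3 near −0.6 in mdx vehicle against wildtype vehicle and all lie below zero with GTx-026.

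The authors' deposited table lists its own unadjusted p-value for each record. For Tiparp the authors' deposited table gives 0.00318 for wildtype over treated, with a ratio of 0.452, and 0.00451 for mdx vehicle over treated, with a ratio of 0.519. For Fkbp5 the authors' deposited table gives 0.0103 and a ratio of 0.165 for wildtype over treated, and 0.0955 and a ratio of 0.509 for mdx vehicle over treated. In the authors' deposited table no Nr3c1 record and no Ddit4 record had a p under 0.05 in any comparison, and 2 of 5 Klf15 records did in each comparison with the treated group. Both Zbtb16 records had such a p for wildtype over treated in the authors' deposited table, 0.0238 and 0.0171, with ratios of 0.594 and 0.570. Of the 9 Tsc22d3 records 1 did, for wildtype over mdx vehicle (0.0288, ratio 0.506 in the authors' deposited table).

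The same libraries held the lowest values of most members. All 7 were lowest in mdx vehicle library 1 of its group, the library with few slow-fibre transcripts, as were 42.1% of all genes. Of all libraries, this library also had the fewest estimated reads (25.1 M) and the largest rescaling factor (1.30). Its macrophage marker sum (1016 CPM) was the highest and its skeletal muscle fibre sum (116176 CPM) the lowest. In wildtype vehicle 6 of 7 were lowest in library 1, as were 39.8% of all genes, and that library had 1356 CPM of slow-fibre markers against 3577 and 10250 CPM in its group. In the treated group 4 of the 7 were lowest in library 3, as were 34.4% of all genes, and that library had the highest slow-fibre sum, 13709 CPM. The part of fibre type, depth, rescaling or other cell types in these levels was not tested.

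Over the 9 libraries, the root mean square of a gene's centred log2(CPM + 1) values ran from 0.28 for Nr3c1 to 1.10 for Fkbp5. By the root mean square difference between 2 such profiles, Nr3c1 and Klf15 were the closest pair of members (0.38) and Fkbp5 and Klf15 the most distant (1.38). Fkbp5 lay nearer to Tsc22d3 (0.66) and Ddit4 (0.74) than to Tiparp (0.76). Among 10342 genes at 5 CPM or more, the profile most like that of Fkbp5 was Tmem37 (0.32), followed by Tfcp2l1 (0.39) and Musk (0.41), which encodes the muscle-specific kinase of the neuromuscular junction. Tiparp was nearest to Crispld2 (0.17), Amhr2 (0.18) and Mgat4b (0.18). Zbtb16 was nearest to Nfil3 (0.23), a clock-linked transcription repressor, and Tsc22d3 to Ankrd9 (0.24). Ddit4 was nearest among named genes to Ankrd1 (0.35), a stress-responsive ankyrin protein of muscle, Klf15 to Celsr2 (0.18), and Nr3c1 to Gm1821 (0.07). A profile with little variation, such as that of Nr3c1, is close to many genes by this measure.

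Around the receptor, 17 of 20 receptors, steroid-converting enzymes and receptor chaperones were tested. In mdx GTx-026 against wildtype vehicle 2 rose and 1 fell, where 1.09% of all genes rose and 0.416% fell. Beside Fkbp5, the gene that rose was Hsd11b1, which encodes the enzyme regenerating active glucocorticoid from its inert form. It was at 6.69, 4.61 and 3.60 CPM in wildtype vehicle, 9.71, 5.60 and 6.65 CPM in mdx vehicle and 11.6, 13.8 and 12.8 CPM in treated muscle (log2 fold change 1.39, adjusted p = 0.0384). The oestrogen receptor gene Esr1 fell, from 29.4, 32.8 and 31.9 CPM in wildtype to 19.2, 18.2 and 15.6 CPM in treated muscle (−0.83, adjusted p = 0.0218), with mdx vehicle between them at 22.2, 26.6 and 24.6 CPM. Fkbp4, the close paralog of Fkbp5, differed by −0.24 and the chaperone genes Hsp90aa1 and Hsp90ab1 by −0.05 and −0.13, none of which passed. The median of the 17 was −0.13, beside 0.00 over all genes. In the other comparisons 0 of 17 passed in limma, with 2 at an unadjusted p under 0.05 in mdx vehicle against wildtype and 3 in treated against vehicle. Of all genes 12.7% and 3.13% had such a p. Of 14 coregulators 0 passed in any comparison in limma, and 0 had an unadjusted p under 0.05.

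Glucocorticoid-induced genes, 33 of 35 tested with 5 of the members among them, held calls in both directions. In treated against wildtype muscle 3 rose (Fkbp5, Mt1 and Mt2) and Sesn1 fell, where 1.09% of all genes rose and 0.416% fell, and the median was 0.30. In that comparison 12 of the 33 had an unadjusted p under 0.05, against 12.7% of all genes, and 10 were higher and 2 lower without overlap, beside 11.5% and 9.23% of all genes. The metallothionein genes Mt2 (log2 fold change 5.56, adjusted p = 0.00083) and Mt1 (4.12, adjusted p = 0.00473), which encode metal-binding proteins, changed most. They also rose in mdx vehicle against wildtype (4.49 and 3.14, adjusted p = 0.00551 and 0.0261), where they were the only 2 of 33 called and 0.208% of all genes rose. In that comparison 11 of the 33 had an unadjusted p under 0.05, beside 12.7% of all genes. There 5 were higher and 2 lower without overlap, beside 7.97% and 8.49% of all genes, and the median was 0.15. Sesn1, which encodes a stress-induced brake on mTORC1, was at 44.8, 52.2 and 41.4 CPM in wildtype and 15.2, 24.3 and 23.2 CPM in treated muscle (−1.16, adjusted p = 0.0381). The mdx vehicle libraries lay between them at 40.7, 26.2 and 33.0 CPM, all below the wildtype libraries. In treated against vehicle 0 of 33 passed in limma, with 5 at an unadjusted p under 0.05, beside 3.13% of all genes. The median there was 0.07.

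Among androgen-induced genes, 23 of 25 tested with the members Fkbp5, Tiparp and Zbtb16 among them, 4 rose and 0 fell in treated against wildtype. These were the members Fkbp5 and Tiparp, with Odc1 and Amd1 beside them, where 1.09% of all genes rose and 0.416% fell. Odc1 and Amd1 encode ornithine decarboxylase and S-adenosylmethionine decarboxylase, enzymes of polyamine synthesis. Odc1 was at 173, 146 and 171 CPM in treated muscle, against 96.4, 66.1 and 64.6 CPM in wildtype and, in mdx vehicle, 79.5, 98.2 and 102 CPM (1.13 against wildtype, adjusted p = 0.0191). Amd1 was at 575, 459 and 252 CPM in treated muscle, against 110, 178 and 162 CPM in wildtype and, in mdx vehicle, 89.95, 101 and 73.9 CPM. Its log2 fold change was 1.47 against wildtype (adjusted p = 0.0495) and 2.21 against mdx vehicle (adjusted p = 0.13). In treated against vehicle 0 of 23 passed in limma and 6 had an unadjusted p under 0.05, beside 3.13% of all genes. There 5 were higher and 0 lower without overlap, beside 3.67% and 3.13% of all genes. In treated against wildtype 11 were higher and 3 lower without overlap, beside 11.5% and 9.23% of all genes. There 12 had an unadjusted p under 0.05, beside 12.7% of all genes. The list's median was 0.35 in treated against vehicle and 0.44 in treated against wildtype. For mdx vehicle against wildtype 0 of 23 passed in limma, with 5 at an unadjusted p under 0.05, beside 12.7% of all genes. There 1 was higher and 4 lower without overlap, beside 7.97% and 8.49% of all genes, and the median was 0.02.

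The lists around Klf15, Ddit4 and Tiparp, which include these members, held few calls. Of 17 genes of the list of branched-chain and other amino acid breakdown, Klf15 itself counted among them, 0 passed in any comparison in limma. Between mdx vehicle and wildtype 8 had an unadjusted p under 0.05 and 8 were lower without overlap, beside 12.7% and 8.49% of all genes. The median there was −0.41. Ivd, the isovaleryl-CoA dehydrogenase of leucine breakdown, was at 165, 157 and 150 CPM in wildtype libraries, then 76.3, 107 and 99.8 CPM in those of mdx vehicle and 91.6, 94.0 and 113 CPM in treated muscle (−0.75, adjusted p = 0.111 in mdx vehicle). In treated against wildtype 7 had an unadjusted p under 0.05, beside 12.7% of all genes. There 8 were lower and 1 higher without overlap, beside 9.23% and 11.5% of all genes, and the median was −0.32. Klf15 itself was 1 of the 7 and 1 of the 8. In treated against vehicle 1 had such a p, Klf15 itself, beside 3.13% of all genes, with a median of 0.08. Of 11 tested mTORC1 brakes and readouts, Ddit4 itself among them, Sesn1 alone was called, in treated against wildtype muscle. It fell there, as did 0.416% of all genes. In each of the other comparisons 0 of 11 passed in limma, with 3 at an unadjusted p under 0.05. Ddit4 itself was 1 of the 3 in mdx vehicle against wildtype. Of all genes 12.7% had such a p in that comparison and 3.13% in treated against vehicle. Eif4ebp1, which encodes the translation repressor 4E-BP1, differed by 0.57 in treated against vehicle (adjusted p = 1.00). Of 6 tested genes of the aryl hydrocarbon receptor pathway Tiparp was the only call, in treated against wildtype, where 1.09% of all genes rose. The receptor gene Ahr was at 2.44 to 4.07 CPM over the 9 libraries.

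**Figure D4:**
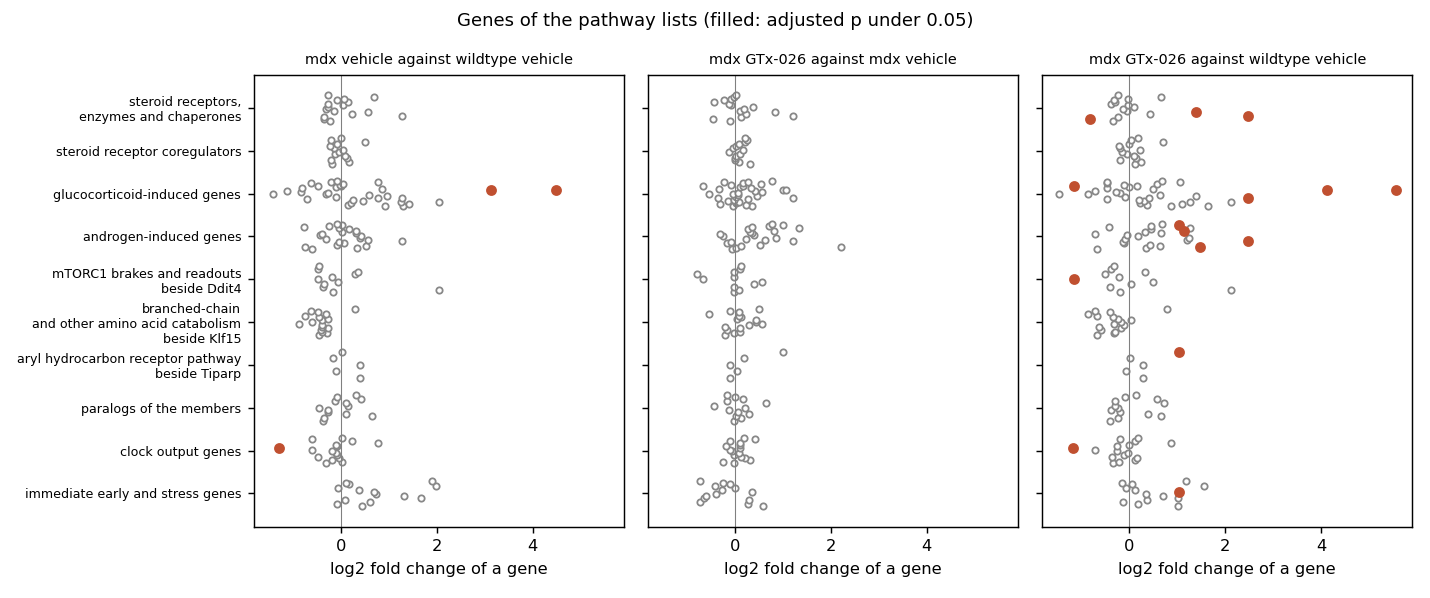
Log2 fold change (horizontal axis) of the tested genes of 10 lists, without those not reported by name, in the 3 comparisons; filled points have an adjusted p under 0.05. In mdx GTx-026 against wildtype vehicle the filled androgen-induced genes all lie above zero, and Mt2 at 5.56 is farthest from it.

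The calls of these other genes also rested on few libraries. Mt1 and Mt2 kept theirs in treated against wildtype muscle under every alternative run (highest adjusted p 0.0288 and 0.0136). Esr1, Hsd11b1, Sesn1, Odc1 and Amd1 each lost theirs without wildtype vehicle library 2 or 3 or without mdx GTx-026 library 1 or 2, among other settings. Their highest adjusted p-values were 0.11, 0.157, 0.165, 0.103 and 0.176. In mdx vehicle against wildtype the call of Mt2 was lost only with the compared groups alone in the model (adjusted p = 0.0586). That of Mt1 was kept in 12 of 19 alternatives (highest adjusted p 0.14). Among the settings that lost it were those without any single wildtype library, mdx vehicle library 3, or library 2 or 3 of the treated group.

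**Figure D5:**
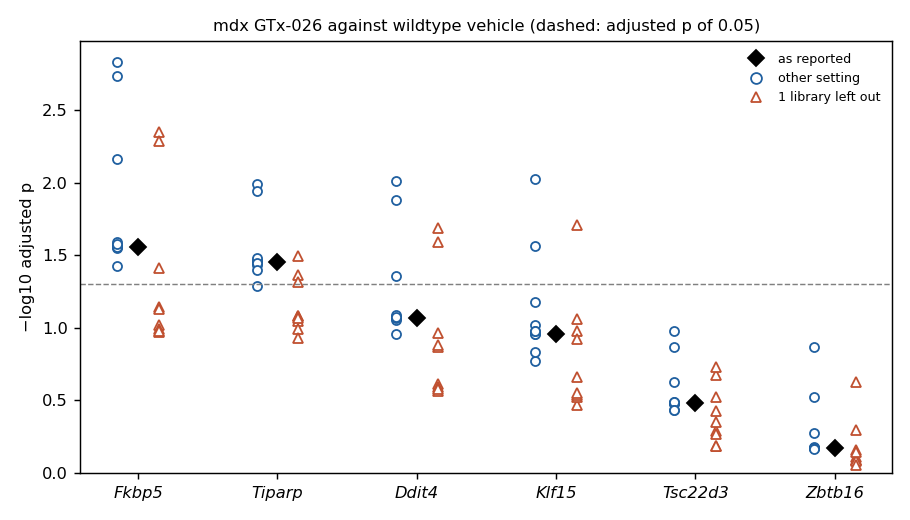
Adjusted p as −log10 (vertical axis) of 6 of the genes in mdx GTx-026 against wildtype vehicle as reported (diamonds), under other settings (circles) and with 1 library left out (triangles); the dashed line is 0.05. Fkbp5 and Tiparp cross below the line when a wildtype or treated library is left out, and Ddit4 and Klf15 cross above it in some settings.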

How the data were processed

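Polyadenylated RNA of 9 gastrocnemius libraries in 3 groups was sequenced on an Ion Torrent Proton, per the labels' protocols. Per the submitters' processing notes the tools were HTSeq 0.6.1p1, DESeq2 1.6.3, TopHat2 2.0.13, SAMtools 0.1.19 and Bowtie2 2.2.4, on GRCm38.p3. Annotation and strand use are not given in the sources used here. Deposited by the authors was a scaled signal per sequence record and library, 46442 records in all. Values below 10000 lay within 0.1 read of whole multiples of a single step per library, and dividing by the step gave the estimated listed reads. Per the file headers the authors also deposited group means, the ratio of the first group to the second, and a p-value per record, which is not adjusted. Columns name a group and a number, so a library's number is a name and pairs nothing.

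Records above 0 in all 9 libraries were summed by symbol, and the 4 records without a symbol, 0.000646% of the deposited total, were left out. Libraries were rescaled by an unweighted trimmed mean of log ratios (30% and 5% trimmed), with factors of 0.874 to 1.30, and levels are printed as CPM. limma 3.58.1 in R 4.3.3 was run on log2(value + 1), where value is the rescaled deposited signal, with a trended prior, all libraries in 1 model, 6 residual and 3.61 prior degrees of freedom. Tests were two-sided, adjusted by Benjamini-Hochberg over 15372 genes in each comparison (threshold 0.05). Fold changes on this scale understate those of low genes. At the depth found, 1 CPM is more than 25 reads in each library. The procedure was tested on simulated data.

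The 7 genes, the 10 lists of related genes and the tests were chosen with earlier results of these data known. Named beside the 7 were list genes past the threshold, the 2 of each list with the smallest p in a comparison, and for each member the 3 genes with the nearest profile, from which the text draws. Promoter windows are from RefSeq (GRCm38.p6) and matched 5 of the 7 genes by symbol, and gene positions are from GENCODE M21 (GRCm38). Some genes of the lists are not reported here by name. Alternatives covered scaling, pseudocount, filter, record choice, samples in the model, library weights, the prior and each library left out.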

Additional observations from a re-analysis of the deposited data

How the results depend on the processing

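Of the 21 log2 fold changes of the 7 genes, 14 kept their sign under all 19 alternatives. Those that changed sign were at most 0.27 in size as reported, but some moved far from that under the alternatives. In mdx vehicle against wildtype vehicle, library weights gave −0.0093 for Nr3c1, −0.048 for Tiparp and 0.11 for Zbtb16, and the deposited scaling gave 0.11 for Zbtb16. In treated against vehicle library weights gave −0.41 for Ddit4, and in treated against wildtype the deposited scaling gave 0.081 for Nr3c1. With single libraries left out, mdx vehicle against wildtype ran from −0.17 to 0.27 for Nr3c1, −0.13 to 0.11 for Tiparp and −0.64 to 0.62 for Zbtb16. Treated against vehicle ran from −0.31 to 0.13 for Nr3c1, −0.080 to 0.68 for Tsc22d3 and −0.51 to 0.68 for Ddit4, and treated against wildtype from −0.26 to 0.10 for Nr3c1. The cause was not tested.

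Counts of called genes moved more. Against wildtype, in mdx vehicle, 51 genes became 81 with all records summed, 6 with the compared groups only and 306 with library weights, and 5 to 85 with a library left out. In treated against vehicle 2 became 4 with the deposited scaling or library weights, 1 with the compared groups only or an untrended prior, and 0 to 1 with a library left out. In treated against wildtype 231 became 414 with the compared groups only and 858 with library weights, and 43 to 377 with a library left out. The count-model alternative was not run, since the reads estimated from the scaled deposited values hold no low counts and were not established as raw counts. No paired analysis was possible because the library numbers pair no samples. The lowest level of a member was that of Ddit4 in wildtype vehicle, at 4.17 CPM or more, and what depth adds to the spread between libraries was not tested.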

Other observations

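Among 16 tested clock output genes, Nr1d1, which encodes the clock repressor REV-ERB alpha, was the only call. It was at 181, 143 and 139 CPM in wildtype vehicle, 64.1, 56.7 and 67.3 CPM in mdx vehicle and 65.7, 56.4 and 82.8 CPM in mdx GTx-026. It fell by 1.29 on the log2 scale in mdx vehicle (limma, adjusted p = 0.0242) and by 1.18 in mdx GTx-026 (adjusted p = 0.0136), both against wildtype, and the mdx groups overlapped. Of all genes 0.124% were called lower in the first of these comparisons and 0.416% in the second. The first call was lost without any single wildtype library, without mdx vehicle library 3, with the deposited scaling and with the compared groups only (highest adjusted p 0.101). The second was lost without wildtype vehicle library 2 or 3, without mdx GTx-026 library 1 or 2 and with the deposited scaling (highest adjusted p 0.0642). In treated against vehicle 0 of 16 passed in limma, with 1 at an unadjusted p under 0.05, beside 3.13% of all genes. Sampling time is not given in the labels.

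Immediate early and stress genes respond within minutes to handling, injury or hormone. Of the 14 tested, Ier3 rose in mdx GTx-026 against wildtype vehicle, where 1.09% of all genes rose. Its level was 6.27, 8.17 and 9.13 CPM in wildtype vehicle, 10.3, 15.0 and 12.8 CPM in mdx vehicle and 13.8, 16.0 and 18.6 CPM in treated muscle (log2 fold change 1.04, adjusted p = 0.0449; highest adjusted p over the alternatives 0.159, the call being lost without any single wildtype or treated library, without mdx vehicle library 3 and with an untrended prior). In mdx vehicle against wildtype 0 of 14 passed in limma, 6 had an unadjusted p under 0.05, beside 12.7% of all genes, and the median was 0.52. The messenger decay gene Zfp36 differed there by 1.90 (adjusted p = 0.138) and Junb by 1.97 (adjusted p = 0.182). In treated against vehicle 0 of 14 passed in limma, 1 had an unadjusted p under 0.05, beside 3.13% of all genes, and the median was −0.26.

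Of 14 paralogs of the members 0 passed in any comparison in limma. At an unadjusted p under 0.05 there were 2 in mdx vehicle against wildtype, 1 in treated against vehicle and 3 in treated against wildtype. Of all genes 12.7%, 3.13% and 12.7% had such a p. The Klf15 paralog Klf13 was at 41.5 to 51.8 CPM in wildtype vehicle, 67.1 to 79.2 CPM in mdx vehicle and 61.1 to 83.8 CPM in treated muscle, higher without overlap in both mdx groups (adjusted p = 0.154 and 0.0822). The Tsc22d3 paralog Tsc22d4 was at 38.5 to 40.3 CPM in wildtype vehicle, 45.2 to 65.4 CPM in mdx vehicle and 55.3 to 62.7 CPM in treated muscle, also higher without overlap in both mdx groups (0.41 and 0.58 against wildtype, adjusted p = 0.321 and 0.115). Of the 14 paralogs 2 were higher without overlap in mdx vehicle and 3 in treated muscle, both against wildtype, beside 7.97% and 11.5% of all genes. In each of these comparisons 1 was lower without overlap, beside 8.49% and 9.23% of all genes.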
